A study of Mus musculus with 4 samples.

Results

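Follicular helper T (TFH) cells are one of several fates open to an activated CD4 T cell. Described here are 10 transcription regulators of T cell lineages, not all of which direct another helper fate. They are Tbx21, Eomes, Gata3, Runx1, Runx3, Cbfb, Prdm1, Bach2, Zbtb7b and Satb1. Each was taken by its symbol from the authors' deposited table of 23996 genes, where each has a row of its own, and all 10 are among the 11569 genes that were tested. The rule that picks them uses no measured value, but the members were chosen with earlier results of these data known.

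Sorted CD4+ splenocytes of mice, positive also for CD44, CXCR5 and PD-1, were profiled 7 days after immunization with ovalbumin (OVA) in alum. WT mice carried the floxed Etv5 allele without Cre (Etv5f/f), and conditional knockout mice (Etv5 cKO) carried it together with Cd4-Cre (Etv5f/f;Cd4-Cre), so the floxed allele and the immunization are common to both groups. Etv5 is a transcription factor of the ETS family. The Cd4 promoter drives Cre in developing T cells before the CD4 and CD8 lineages separate, so deletion is not limited to TFH cells. Each genotype had 2 libraries, and the labels do not say whether these came from separate mice, nor the age or sex of the mice.

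TFH cells depend on the repressor BCL6, and the programmes of the other helper fates work against it. T-bet, encoded by Tbx21, directs the Th1 fate and GATA3 the Th2 fate. Blimp-1, encoded by Prdm1, and BCL6 repress each other. RUNX factors act with their partner CBFβ, and ThPOK, encoded by Zbtb7b, holds CD4 cells back from the CD8 programme that RUNX3 promotes. BACH2 restrains effector genes, and SATB1 organises chromatin in T cells.

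The authors' deposited table holds 1 FPKM value per gene and genotype (fragments scaled to transcript length and to mapped fragments). Values per library were not at hand, so no spread between libraries can be given, and whether the libraries of the genotypes overlap cannot be said. Depth is unknown. A gene was called at a Cuffdiff adjusted p below 0.05. In the authors' deposited table Etv5 itself fell from 5.24 to 2.12 FPKM (Cuffdiff adjusted p = 0.0181, log2 fold change -1.31). Of 5 tested Y-linked genes 4 were called lower in Etv5 cKO, and Xist stood at 110 FPKM in WT against 172 FPKM in cKO, so the genotypes also differ in sex-linked transcripts. The part of that difference in the values below was not tested.

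None of the 10 regulators was called in the authors' deposited table, where Cuffdiff called 40 genes, or 0.346% of those tested (0.242% lower and 0.104% higher in Etv5 cKO). At an unadjusted p below 0.05 the count was also 0 of 10, against 2.4% of all tested genes. Every regulator carried the same Cuffdiff adjusted p of 0.999 in the authors' deposited table, a value shared by 98.7% of tested genes. The deposited log2 fold change was above 0 for 5 regulators and below 0 for 5, with a median of 0.0058 against -0.0033 over all tested genes. Their median absolute log2 fold change was 0.097, against 0.088 over all tested genes. The regulators within 0.2 of no change on the log2 scale made up 70.0% of the 10, against 78.9% of tested genes. In these bulk libraries, fewer cells that express a gene and less of its RNA per cell cannot be told apart.

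A missed threshold does not show that a gene was the same in both genotypes. The deposited p-value of each regulator was therefore turned into the error that gives this p in a two-sided normal test. These errors ran from 0.18 to 0.22 on the log2 scale. The resulting 95% intervals all included 0 and reached from -0.66 for Tbx21 to 0.69 for Satb1. The smallest absolute log2 fold change of any called gene in the authors' deposited table was 0.68, and the interval of Satb1 extended past that size. With the wider errors that the deposited test scores give, the intervals of Tbx21 (to -0.84), Prdm1 (to -0.76), Eomes (to 0.81) and Satb1 (to 0.83) extended past it, and all 10 still included 0.

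**Figure D1:**
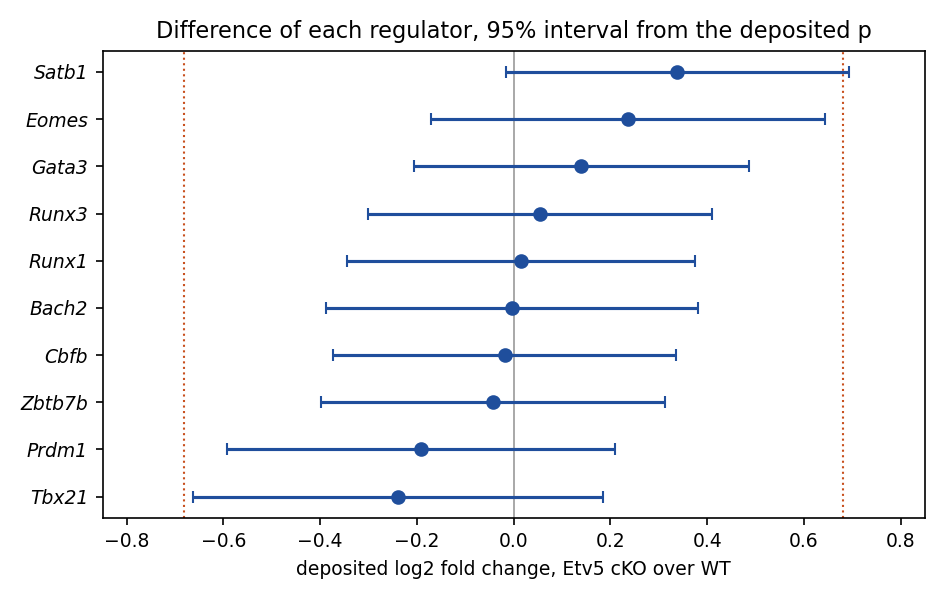
Deposited log2 fold change (Etv5 cKO over WT) of each regulator, with points for the value and bars for the 95% interval from the deposited p-value. Dotted lines mark the smallest absolute log2 fold change of a called gene, 0.68; all 10 bars cross 0.

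The levels of the regulators spanned a wide range, and their order hardly differed between genotypes. FPKM is scaled to the transcript length that Cuffdiff used, and levels are set beside each other on that scale. Cbfb was highest at 106 FPKM in WT and Bach2 lowest at 4.16 FPKM, a ratio of 25.4. From high to low the WT order was Cbfb, Zbtb7b, Gata3, Runx1, Satb1, Runx3, Tbx21, Eomes, Prdm1 and Bach2. In Etv5 cKO the order was the same except that Eomes stood above Tbx21. Without values per library it cannot be said which neighbours in this order differ beyond their spread. The mean FPKM of 6 regulators lay above the median tested gene (14.4 FPKM), while Tbx21, Eomes, Prdm1 and Bach2 lay below it.

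**Figure D2:**
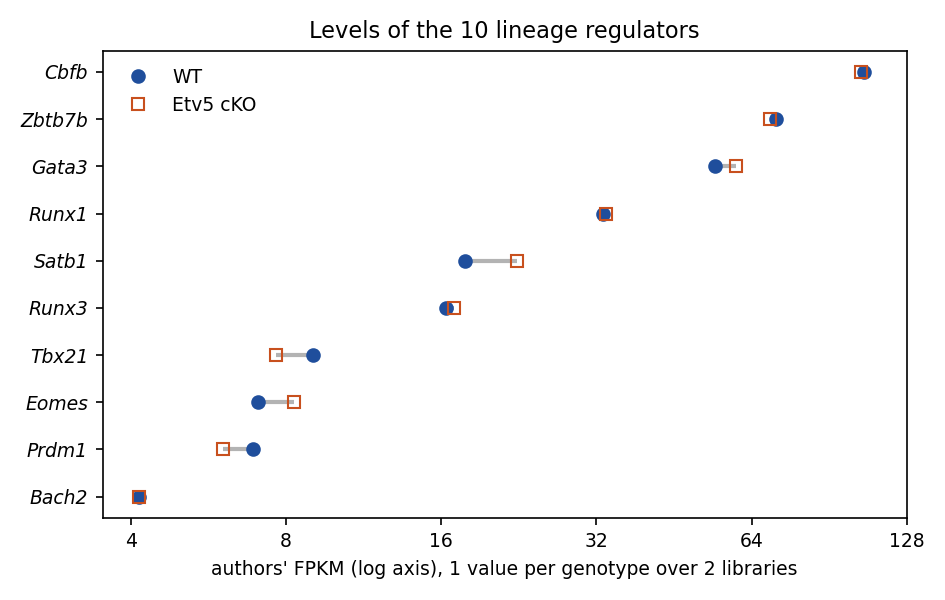
Deposited FPKM of the 10 regulators on a log axis, filled circles for WT and open squares for Etv5 cKO, each 1 value over 2 libraries. Cbfb, at 106 and 104 FPKM, is highest and Bach2, at 4.16 and 4.15 FPKM, lowest; the widest gap belongs to Satb1.

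The T-box genes Tbx21 and Eomes had deposited differences of like size and opposite sign, and neither was called. Tbx21 (mm10 chromosome 11, 97098007 to 97115331, protein coding) had deposited levels of 9.03 FPKM in WT against 7.65 FPKM in Etv5 cKO. Its log2 fold change was -0.24 (95% interval -0.66 to 0.19), and the authors' unadjusted Cuffdiff test gave p = 0.269. The cKO level of Tbx21 was 84.7% of WT. Eomes, which drives cytotoxic and memory programmes in CD8 T and NK cells, lies on chromosome 9 from 118478189 to 118486132. Its deposited levels were 7.05 FPKM in WT against 8.30 FPKM in Etv5 cKO (log2 fold change 0.24, 95% interval -0.17 to 0.64, unadjusted p = 0.257 in the authors' deposited table). The ratio of Eomes to Tbx21 was 0.781 in WT and 1.09 in cKO. The difference in this ratio was not tested. A larger absolute log2 fold change than that of Tbx21 was found for 16.7% of tested genes, and than that of Eomes for 17.1%.

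Most markers of CD8, NK and innate-like T cells also had higher values in Etv5 cKO, without a call. Without Eomes itself, 11 of 13 tested markers had a higher value in Etv5 cKO, around a median log2 fold change of 0.37 with 0 called by Cuffdiff. The list's summed level, Eomes included, was 83.5 FPKM in WT against 101 FPKM in cKO. Without its highest gene, Tyrobp, the sum was 64.4 FPKM in WT against 72.9 FPKM in cKO. Fcer1g, the next highest, was at 19.3 and 24.6 FPKM, and Tyrobp and Fcer1g together carried most of the difference in the sum. Among the markers, Klrd1 (CD94, an NK receptor chain) stood at 2.24 and 3.85 FPKM in the authors' deposited table. Cd8a was near 0, at 0.0519 FPKM in WT against 0.0800 FPKM in cKO, and Cd8b1 was at 4.32 and 5.77 FPKM. Tyrobp, a signalling adaptor of NK and myeloid cells, was at 19.1 and 28.4 FPKM (the authors' unadjusted p = 0.0397). Gzmk, which encodes granzyme K, went the other way at 13.8 and 9.26 FPKM (the authors' unadjusted p = 0.0520), and the NK receptor gene Klrb1c was at 10.2 and 10.4 FPKM. The part of such cells in the Eomes value was not tested.

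Of 14 other T-box genes chosen for a list, which does not cover the whole family, only Tbx6 and Mga were tested. Of the 14, 5 stood at 0 in both genotypes. Tbx6, a factor of mesoderm development, stood at 10.7 and 8.07 FPKM (the authors' unadjusted p = 0.0746), and Mga, which joins a MAX-interacting domain to its T-box, at 11.6 and 10.8 FPKM. Neither was called.

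Genes of the Th1 programme, which T-bet controls, were divided in direction. Of 19 tested members 10 were higher and 9 lower in the authors' deposited table, around a median log2 fold change of 0.029 against -0.0033 over all tested genes. Cuffdiff called 1 lower gene and no higher gene. That gene was Ifng, the Th1 signature cytokine, which fell by 1.04 on the log2 scale (29.8 to 14.5 FPKM, the authors' adjusted p = 0.0181). Cxcr3, a chemokine receptor that T-bet induces, stood at 83.8 and 56.1 FPKM (the authors' unadjusted Cuffdiff p = 0.0011, adjusted p = 0.231). At an unadjusted p below 0.05 there were 2 lower genes, Ifng and Cxcr3, and 0 higher ones. Other genes tied to T-bet were not called. The deposited levels of Stat4, which signals from the IL-12 receptor, were 73.0 and 64.7 FPKM. Il12rb2, a chain of that receptor, was at 1.11 and 1.13 FPKM, and the chemokine gene Ccl5 at 53.3 and 62.7 FPKM. Il18rap, a chain of the IL-18 receptor, stood at 7.77 and 9.67 FPKM (the authors' unadjusted p = 0.107).

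Gata3 (chromosome 2, 9857078 to 9878600, protein coding) was the third most abundant regulator, with a level above 86.2% of tested genes. In the authors' deposited table it stood at 54.3 FPKM in WT against 59.8 FPKM in Etv5 cKO. The log2 fold change of Gata3 was 0.14 (95% interval -0.21 to 0.49), with an unadjusted p = 0.429 from the authors' Cuffdiff test. Gata3 exceeded Tbx21 6.02-fold in WT and 7.82-fold in cKO, and the log2 difference between these ratios, 0.38, was not tested. Bcl6 exceeded Gata3 1.77-fold in WT and 1.45-fold in cKO.

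Th2 programme genes were divided in direction. Of 15 tested members 9 were higher and 6 lower around a median log2 fold change of 0.045, with 0 called by Cuffdiff. At an unadjusted p below 0.05 there was 1 higher gene, Ccr4, a chemokine receptor of Th2 and regulatory T cells, at 50.1 and 65.3 FPKM (the authors' unadjusted p = 0.0310). There was 1 lower gene, Il10, at 9.96 and 4.72 FPKM (the authors' adjusted p = 0.249). Il4, the cytokine that GATA3 controls and that TFH cells also make, stood at 52.1 and 56.6 FPKM in the authors' deposited table. Il5 was near 0 in both genotypes, at 0.110 and 0.0968 FPKM, and Il13 was low, at 1.17 and 2.07 FPKM. Nfil3, a regulator of several cytokine genes, had a log2 fold change of -0.38 (the authors' unadjusted p = 0.0668).

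The other GATA genes and their partners included erythroid factors. Of 7 tested genes 5 were higher, around a median log2 fold change of 0.40 with 0 called. Gata1, which directs red cell and platelet precursors, stood at 2.03 and 3.25 FPKM (the authors' unadjusted p = 0.0493). Tal1, its partner, was at 1.25 and 1.75 FPKM, and Lmo2, a bridging protein of the same complex, at 3.41 and 4.53 FPKM. In the same libraries 16 of 19 tested granulocyte, erythroid and platelet markers were higher, 8 of them called higher by Cuffdiff, with a median log2 fold change of 1.27. Among those called, the haem synthesis gene Alas2 rose from 1.63 to 6.83 FPKM and the granule enzyme gene Mpo from 3.24 to 6.86 FPKM (the authors' adjusted p = 0.0181 for both). The summed level of these markers was 156 FPKM in WT against 647 FPKM in cKO, and haemoglobin genes made up most of it. Hbb-b1,Hbb-bs stood at 62.1 and 279 FPKM, and Hba-a1,Hba-a2 at 26.8 and 162 FPKM. Hbb-bs and Hba-a2 were listed again on their own at the same loci and entered the sum as well. The lower tested markers were Hba-a2 (17.9 and 15.7 FPKM) and granulocyte genes Ngp (0.639 and 0.553 FPKM) and Camp (0.692 and 0.301 FPKM). The platelet genes Pf4, Itga2b, Gp9 and Ppbp were not tested by Cuffdiff. The part of granulocyte, erythroid and platelet cells in the Gata1 value was not tested. Zfpm1 (FOG-1), a cofactor that binds GATA factors, was at 53.8 FPKM in WT against 48.8 FPKM in cKO.

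The RUNX genes and Cbfb had some of the smallest differences among the 10. RUNX proteins bind DNA through the Runt domain, and CBFβ binds no DNA itself but strengthens their binding. Runx1 (chromosome 16, 92601466 to 92826074) stood at 33.0 FPKM in WT against 33.4 FPKM in Etv5 cKO by the authors' deposited table, and its log2 fold change was 0.015 (95% interval -0.34 to 0.37). Runx3 (chromosome 4, 135120645 to 135177990) stood at 16.3 and 17.0 FPKM, a log2 fold change of 0.055 (95% interval -0.30 to 0.41). Cbfb (chromosome 8, 105170674 to 105217988) stood at 106 and 104 FPKM, a log2 fold change of -0.019 (95% interval -0.37 to 0.34). The unadjusted Cuffdiff p-values were 0.935, 0.763 and 0.917. All 3 genes are protein coding.

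The proportions within the RUNX complex differed little between genotypes. Runx1 exceeded Runx3 2.02-fold in WT and 1.97-fold in Etv5 cKO. Runx2, the third RUNX gene, was at 8.39 and 8.16 FPKM in the authors' deposited table, so that the RUNX transcripts summed to 57.7 FPKM in WT against 58.5 FPKM in cKO. Cbfb exceeded this sum 1.83-fold in WT and 1.78-fold in cKO. These ratios concern transcripts of whole genes and were not tested.

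Each RUNX gene has a promoter in the RefSeq promoter table (GRCm38.p6, 250 bases before to 50 after each start) with a pair of RUNX-type motifs. The letters TGTGGT were searched on both strands. The motif, its pairing and the spacing of 8 bases were chosen after the promoters had been looked at. The share of promoters with such a pair is therefore only a description. The stretches are shown because the arrangement is shared by the whole family. The motif, which reads ACCACA here on the strand of the gene, is in capitals.
Runx1: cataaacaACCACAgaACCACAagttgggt
Runx2: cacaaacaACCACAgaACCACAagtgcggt
Runx3: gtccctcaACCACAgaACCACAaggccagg
The stretches lie at chr16:92826025-92826054 on the minus strand, chr17:44814583-44814612 on the minus strand and chr4:135120503-135120532 on the plus strand. A stretch of 18 bases around the pair is identical in all 3. In Runx3 the pair begins 134 bases before the start, in Runx1 28 bases after it and in Runx2 23 bases after it. At least 1 TGTGGT occurred in 16.8% of 32851 promoters, and a pair on 1 strand with starts 8 bases apart in 0.0213%, which is 7 promoters. The other 4 belong to Gm12236, Gm15462, Gm16225 and Olfr24. The deposited FPKM values are per gene and do not separate transcripts of this promoter from those of the second promoter that the table lists for Runx1 and for Runx3.

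Among 11 tested RUNX-associated genes the deposited differences were small, from -0.18 to 0.15 on the log2 scale, with 0 called by Cuffdiff. Of these, 4 were higher and 7 lower. Tle3, a corepressor of the Groucho family that binds RUNX proteins, stood at 89.8 and 80.3 FPKM. The acetyltransferase gene Ep300 was at 29.1 and 25.8 FPKM, and Cbfa2t2, a corepressor of the ETO family, at 7.78 and 6.88 FPKM.

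Prdm1 and Bach2 were the lowest expressed of the 10. Prdm1 (chromosome 10, 44437175 to 44458687, protein coding) stood at 6.91 FPKM in WT against 6.05 FPKM in Etv5 cKO. Its log2 fold change in the authors' deposited table was -0.19 (95% interval -0.59 to 0.21, unadjusted p = 0.351). Bcl6 stood far above Prdm1 in both genotypes, by 13.9-fold in WT and 14.4-fold in cKO. Bcl6 itself was at 95.9 and 86.9 FPKM, and it exceeded Tbx21 10.6-fold in WT and 11.4-fold in cKO. These ratios were not tested.

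Genes that Blimp-1 is known to regulate, and its corepressors, were evenly divided. Of 18 tested members 9 were higher and 9 lower in the authors' deposited table around a median log2 fold change of 3.8e-04. Cuffdiff called 1 lower gene, Lag3, an inhibitory receptor, which fell by 0.89 on the log2 scale (115 to 61.9 FPKM, the authors' adjusted p = 0.0181). At an unadjusted p below 0.05 there were 2 lower genes, Lag3 and Il10, and 0 higher ones. Ccr7, a lymph node homing receptor, stood at 26.3 and 26.2 FPKM. The histone-modifying partners Ehmt2 (62.6 and 65.0 FPKM), Hdac1 (94.2 and 94.9 FPKM) and Kdm1a (37.5 and 35.6 FPKM) were not called. B and plasma cell markers differed widely in level. Cd79b, a chain of the B cell receptor, stood at 4.13 FPKM in WT against 4.80 FPKM in Etv5 cKO. Its partner Cd79a was at 1.43 FPKM in Etv5 cKO (log2 fold change 0.52), and Cd22, an inhibitory receptor of B cells, at 10.7 FPKM (log2 fold change -0.28). The plasma cell marker Igj (J chain) was at 34.1 and 33.2 FPKM, so some of these markers were at or above the levels of Bach2 and Prdm1. Ms4a1 was at 0.204 and 0.469 FPKM and Sdc1 at 0.817 and 0.821 FPKM in the authors' deposited table. Over the list of B and plasma cell markers 7 of 10 tested genes were higher, 0 were called, the median log2 fold change was 0.12, and the summed level was 192 FPKM in WT against 199 FPKM in cKO. The part of such cells in the Prdm1 and Bach2 values was not tested.

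Bach2 (chromosome 4, deposited locus 32417435 to 32586108, protein coding) had the smallest difference of the 10. Its level was 4.16 FPKM in WT against 4.15 FPKM in Etv5 cKO. The authors' deposited table gives Bach2 a log2 fold change of -0.0033 (95% interval -0.39 to 0.38, unadjusted p = 0.986). The ratio of Bach2 to Prdm1 was 0.602 in WT and 0.686 in cKO. The antisense gene Bach2os shares the deposited locus and was not tested, at 0.246 and 0.284 FPKM. Whether counting used strand is not given in the sources used here, so reads of Bach2 and Bach2os may not be told apart.

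BACH proteins pair with small MAF proteins and compete at AP-1 sites. Of the 15 tested genes of this group 7 were higher and 8 lower around a median log2 fold change of -0.011, with 0 called by Cuffdiff. The small MAF genes Mafk (20.5 and 22.0 FPKM) and Mafg (28.0 and 27.8 FPKM) were well above Bach2 in level. Bach1 was at 4.96 and 5.16 FPKM. Jun, an AP-1 subunit, stood at 36.3 and 28.0 FPKM (the authors' unadjusted p = 0.0556), Hmox1, a classic BACH1 target, at 35.3 and 44.3 FPKM (unadjusted p = 0.0726), and the erythroid factor gene Nfe2 at 2.25 and 3.42 FPKM (unadjusted p = 0.0727).

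Since Etv5 is an ETS factor, the promoters of the 10 regulators were searched on both strands for the ETS-type letters CCGGAAG and for the shorter CCGGAA that they contain. All 10 matched the RefSeq table, with 17 promoters among them. CCGGAAG occurred in 1 of the 17, against 8.86% of 32851 promoters, and CCGGAA in 3 of the 17, against 14.9%. The 3 stretches are shown on the strand of the gene, with the motif in capitals; in Bach2 and Gata3 it reads in reverse.
Bach2: aacgggctttccCTTCCGGtctaggtggac
Gata3: ggcggcgcccctTTCCGGtcagtagagggg
Runx1: cccaggctgataCCGGAAaggcctgtgatt
They lie at chr4:32417411-32417440 on the plus strand, chr2:9878786-9878815 on the minus strand and chr16:92697418-92697447 on the minus strand (GRCm38.p6). The motif begins 12 bases before the start of Bach2, 203 bases before that of Gata3 and 106 bases before the second Runx1 start. The log2 fold changes of these genes were -0.0033, 0.14 and 0.015. A match is not a measured binding site.

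Zbtb7b (chromosome 3, deposited locus 89377646 to 89398779, protein coding) was the second most abundant regulator. Its level was 71.5 FPKM in WT against 69.4 FPKM in Etv5 cKO. The authors' deposited table gives Zbtb7b a log2 fold change of -0.043 (95% interval -0.40 to 0.31, unadjusted p = 0.812). Zbtb7b exceeded Runx3, its counterpart in the CD8 lineage, 4.37-fold in WT and 4.09-fold in cKO. The locus also holds Gm15417, a gene on the opposite strand, at 1.90 and 1.57 FPKM, to which the same limit on strand applies.

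Genes of the choice between the CD4 and CD8 lineages were divided in direction, with log2 fold changes from -0.33 (Crtam) to 0.42 (Cd8b1). Cd4 itself stood at 460 and 470 FPKM in the authors' deposited table. Of 16 tested genes 9 were higher and 7 lower around a median log2 fold change of 0.0096, with 0 called by Cuffdiff. Crtam, a surface molecule of cytotoxic CD4 and CD8 cells, was at 5.14 and 4.09 FPKM, and Prf1, which encodes perforin, at 0.899 and 1.02 FPKM. Gzmb, which encodes granzyme B, was at 6.20 and 6.83 FPKM.

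Other POK and BTB zinc finger genes leaned lower in the authors' deposited table, without a call. Of 14 tested genes 12 had a lower value in Etv5 cKO and 2 a higher one, with a median log2 fold change of -0.11, while 48.8% of all tested genes were higher. Zbtb32, an attenuator of lymphocyte activation, was at 14.0 and 10.7 FPKM (the authors' unadjusted p = 0.0728). Zbtb16 (PLZF), the regulator of innate-like T cells, had a higher value, 0.974 and 1.55 FPKM (the authors' unadjusted p = 0.0267), and it is also 1 of the innate-like T markers that were higher. Zbtb46, a dendritic cell factor, was at 0.763 and 0.490 FPKM.

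Satb1 had the largest difference of the 10. Satb1 (chromosome 17, 51736187 to 51833290, protein coding) had deposited levels of 17.8 FPKM in WT against 22.5 FPKM in Etv5 cKO, so that the cKO level was 126% of WT. The authors' log2 fold change was 0.34 (95% interval -0.016 to 0.69, unadjusted Cuffdiff p = 0.0615, adjusted p = 0.999). A larger absolute log2 fold change was found for 9.96% of tested genes, and a smaller unadjusted p for 2.78%. Satb1 is known for its high level in thymocytes and naive T cells. In the same libraries 9 of 15 tested naive and central memory markers were higher, and 1 was called; the median log2 fold change of the list was 0.077. That gene was Il7r, the interleukin-7 receptor, which rose by 0.69 on the log2 scale (38.8 to 62.8 FPKM, the authors' adjusted p = 0.0351). Ccr7 (26.3 and 26.2 FPKM) and Lef1 (74.2 and 73.2 FPKM) were close in both genotypes. The summed level of these markers was 1330 FPKM in WT against 1317 FPKM in cKO. Tcf7, which also serves TFH cells, made up much of that sum (669 and 607 FPKM), and without it the direction turned, to 661 FPKM in WT against 710 FPKM in cKO. The part of naive cells in the Satb1 value was not tested.

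The chromatin organisers grouped with Satb1 had a narrow range in the authors' deposited table, from -0.12 to 0.11 on the log2 scale. Of 13 tested genes 8 were higher and 5 lower around a median of 0.0048, with 0 called by Cuffdiff. They included Ctcf, the insulator protein gene (67.1 and 66.5 FPKM), the cohesin gene Rad21 (81.4 and 81.5 FPKM) and the cohesin loader Nipbl (37.1 and 34.2 FPKM). Ctbp1, a corepressor that binds SATB1, was at 86.3 and 92.9 FPKM.

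**Figure D3:**
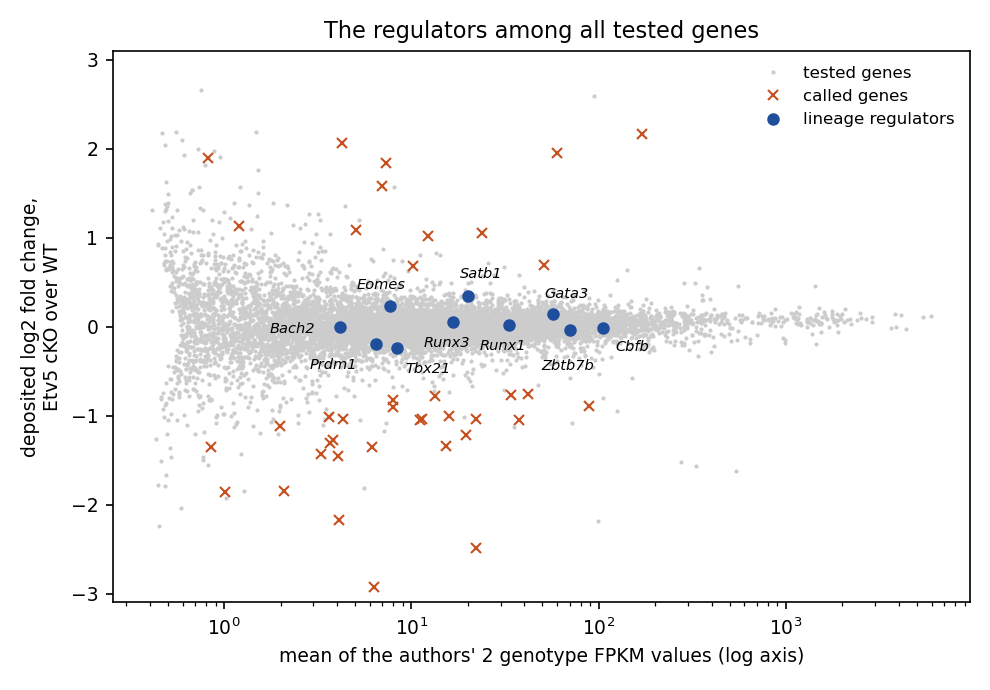
Deposited log2 fold change (Etv5 cKO over WT) against mean FPKM on a log axis for tested genes (grey), called genes (crosses) and the 10 regulators (filled circles); genes outside the plotted range are not drawn. The regulators lie between -0.24 (Tbx21) and 0.34 (Satb1), inside the grey band.

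Regulators that direct or restrain the TFH fate leaned lower in the authors' deposited table, also without a call. Of 16 tested genes 14 had a lower value in Etv5 cKO, around a median log2 fold change of -0.13 with 0 called by Cuffdiff. The 10 lineage regulators were divided 5 and 5. Whether the lists differ was not tested. Ascl2, which starts CXCR5 expression, stood at 10.6 and 7.78 FPKM (the authors' unadjusted p = 0.108), Maf, which drives Il21 and Il4, at 206 and 173 FPKM, and Batf, an AP-1 partner of IRF4, at 93.3 and 80.0 FPKM. Genes known to restrain TFH cells went both ways: Klf2 (77.8 and 83.7 FPKM) and Id2 (96.1 and 106 FPKM) had higher values, while Id3 (152 and 135 FPKM), Foxp1 (25.8 and 23.8 FPKM) and Foxo1 (61.0 and 60.4 FPKM) had lower ones. Of 17 tested pan T cell genes 14 were also lower, with a median of -0.099.

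Gata3, Prdm1, Runx1 and Satb1 also work in regulatory T cells, and the sort markers are not specific against these cells. Foxp3, their defining gene, stood at 65.3 and 66.3 FPKM in the authors' deposited table. Of 14 tested regulatory T markers 7 were higher and 7 lower around a median log2 fold change of -0.044, with 0 called by Cuffdiff. Nrp1 (45.0 and 32.9 FPKM, the authors' unadjusted p = 0.00985) and Nt5e (108 and 78.8 FPKM, unadjusted p = 0.0109) had the lowest p-values. Myeloid markers were higher in 15 of 18 tested genes (median 0.39), among them Lyz2, which rose from 8.12 to 16.4 FPKM (the authors' adjusted p = 0.0434). The lower ones were Cebpa (37.5 and 33.4 FPKM), Cebpb (14.2 and 12.8 FPKM) and Zbtb46. Ctss, the highest in level, was at 168 and 173 FPKM. The part of these cells in the values of the regulators was not tested. For the lists with 0 genes called by Cuffdiff, the authors' unadjusted p was below 0.05 for 3 higher CD8, NK and innate-like T markers, 2 lower regulatory T markers and 1 higher gene each of the GATA and POK lists. The Th2 list had 1 such gene in each direction. In the T-box, RUNX, BACH, lineage choice, SATB, TFH, B cell and pan T cell lists 0 genes were below that value. Lists with called genes had 10 higher granulocyte, erythroid and platelet markers, 7 higher myeloid markers and 1 higher naive marker below it. The Th1 and Blimp-1 lists had 2 lower genes each. Some genes stand in more than 1 list.

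**Figure D4:**
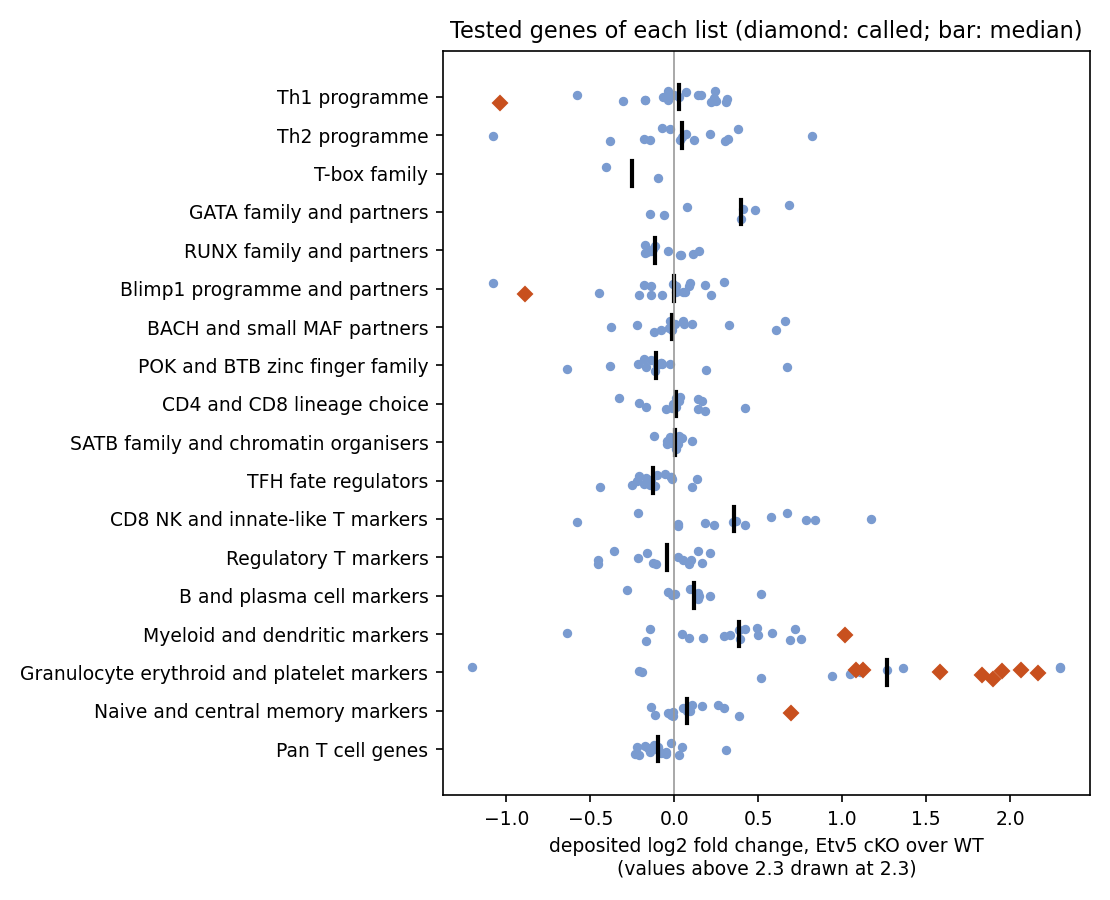
Deposited log2 fold change (Etv5 cKO over WT) of the tested genes of each list, with diamonds for called genes and black bars for list medians. The lists built around the regulators have medians from -0.12 to 0.045, apart from the GATA partners (median 0.40) and the T-box genes, of which only Tbx6 and Mga were tested; the granulocyte, erythroid and platelet markers have a median of 1.27.

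The tested genes that neighbour the regulators showed no called difference either. Within 30000 bases of the 10 deposited loci the authors' deposited table lists 20 other genes, of which 13 were tested, 5 higher and 8 lower. None was called by Cuffdiff, and none had an unadjusted p below 0.05. The log2 fold changes of the tested neighbours ran from -0.44 to 0.50. The lowest was that of Tbkbp1, which lies beside Tbx21 (1.46 and 1.07 FPKM). The highest was that of 4930412O13Rik, which lies beside Gata3 on the opposite strand (0.587 and 0.831 FPKM). Mir8103, also beside Tbx21, was listed at 273 FPKM in WT and 0 in Etv5 cKO but was not tested by Cuffdiff. It shares its deposited locus with Osbpl7, which was at 16.3 and 15.2 FPKM. Runx1, Runx3, Prdm1 and Satb1 have no other listed gene within that distance.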

How the data were processed

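Per the labels' protocols, stranded poly(A) libraries were made from sorted TFH cells, 4 in all and 2 per genotype. TopHat2 2.0.13 and Cuffdiff 2.2.0 on mm10 come from the submitters' processing notes; annotation, strand setting and normalization were not given in the sources used here. Cuffdiff took the 2 libraries of each genotype as 1 condition, per the file headers. The authors' deposited FPKM values, log2 fold changes (Etv5 cKO over WT, no pseudocount), fold ratios (not used), test scores and p-values with adjusted p-values were used as they stand, since they hold no counts and no library values. With nothing on separate mice in the labels, p-values may measure technical spread. FPKM depends on the transcript length used and on how shared reads are divided.

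The members and lists were chosen with earlier results of these data known. The 18 lists hold 276 symbols, of which 271 were found, 4 by an older symbol in RefSeq. Named genes are the regulators, Etv5, called list genes, the 3 lowest p-values of each list and the first 3 tested markers; all others were chosen after their values were seen. Starts are 1-based (deposited start plus 1). The error from the deposited p was chosen after seeing the data: the planned error from the test score was set aside because normal p-values of the score did not track the deposited ones (medians 0.0892 and 0.0181 at scores of 1.5 to 2). Planned protein comparisons were not made. Many list genes that the rule covers enter the counts only and are not reported here by name. The code (Python 3.11.15 with scipy 1.17.1, pandas 2.3.3 and matplotlib 3.10.9) was tested on simulated data.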

Additional observations from a re-analysis of the deposited data

How the results depend on the processing

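With no library values at hand, no library could be left out. No paired analysis was possible because the table gives 1 value per genotype over both of its libraries. The count of called regulators was 0 by Cuffdiff, at an adjusted p below 0.1, over every gene of the table and at an unadjusted p below 0.05. All called genes numbered 40, and 32 over every gene of the table, 41 at an adjusted p below 0.1 and 38 with a mean of at least 1 FPKM. The median log2 fold change of the regulators stayed between 0.0058 and 0.015 under pseudocounts of 0.1, 1 and 5, median centring, quantile normalization and floors of 1 and 5 FPKM. Of 50 values of single regulators under the pseudocounts and scalings, 50 had the sign of the deposited value, and the largest move was 0.093. The median error was 0.18 from the deposited p and 0.26 from the test score, and intervals from the score passed the smallest called size, 0.68, for 4 regulators in place of 1. Unknown depth limits the low genes Bach2, Prdm1, Eomes and Tbx21 most, but no detection limit can be given.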
